A study of Mus musculus with 28 samples.

Results

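Acetylation of lysine 9 of histone H3 (H3K9ac) was compared between lung adenocarcinoma cells of the mouse that resist PD-1 inhibitors and carry an shFabp7 knockdown (Res_shFabp7) and wild-type cells that are sensitive to PD-1 inhibitors (Sen). The members were the H3K9ac peak lists of both groups, 3 libraries each, which are 6 of the 28 samples of the series. A further pair of resistant groups served for orientation: cells with the genotype Control (Res_Ctrl) and wild-type cells described as treated with PD-1 inhibitors (Res), with 3 H3K9ac libraries each. All cells are labelled lung adenocarcinoma and grew in RPMI-1640 with 10% serum, and the labels call the 3 libraries of a group biological replicates. Res_shFabp7 and Sen differ both in resistance and in the hairpin, so the comparison asks how near the knockdown cells lie to sensitive cells and cannot by itself say what the hairpin did. Whether a line was 1 clone, how many hairpins were used and how resistance arose is not stated in the labels.

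H3K9ac is placed by acetyltransferases such as those of the GCN5 and PCAF family, is removed by histone deacetylases, and is found mostly at the promoters of active genes. Fabp7 encodes a brain-type fatty acid binding protein, one of a family of small cytoplasmic carriers of long-chain fatty acids. The series title concerns ferroptosis, a form of cell death driven by the peroxidation of membrane lipids, and the fatty acid binding proteins.

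The promoters of 4 genes show what the largest differences look like in sequence, as the 250 bases before the annotated start, from RefSeq on GRCm38.p6, the assembly of build mm10. Each is written 5′ to 3′ on the gene's strand, with CG dinucleotides in capitals, because dense CG is the usual context of H3K9ac at promoters. Mtap had the largest increase among genes with an entry in the promoter table, Serpinh1 the largest decrease, Klhl1 the strongest gained region and Cdkn2a the strongest lost one.
Mtap (chr4:89137120-89137369, plus strand): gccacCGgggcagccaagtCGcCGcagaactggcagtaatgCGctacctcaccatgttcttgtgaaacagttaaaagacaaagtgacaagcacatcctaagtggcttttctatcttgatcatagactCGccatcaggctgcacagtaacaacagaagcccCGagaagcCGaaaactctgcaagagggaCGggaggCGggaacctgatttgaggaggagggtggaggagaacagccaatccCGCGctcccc
Serpinh1 (chr7:99353240-99353489, minus strand): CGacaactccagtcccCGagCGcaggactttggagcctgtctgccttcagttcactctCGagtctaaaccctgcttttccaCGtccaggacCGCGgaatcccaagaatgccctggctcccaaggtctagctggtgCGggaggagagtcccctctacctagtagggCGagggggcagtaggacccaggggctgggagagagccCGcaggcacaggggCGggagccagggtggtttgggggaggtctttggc
Klhl1 (chr14:96519035-96519284, minus strand): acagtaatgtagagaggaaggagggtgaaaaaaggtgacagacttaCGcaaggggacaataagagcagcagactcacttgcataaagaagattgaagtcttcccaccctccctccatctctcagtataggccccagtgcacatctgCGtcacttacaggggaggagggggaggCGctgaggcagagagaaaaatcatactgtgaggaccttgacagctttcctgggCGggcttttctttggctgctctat
Cdkn2a (chr4:89294620-89294869, minus strand): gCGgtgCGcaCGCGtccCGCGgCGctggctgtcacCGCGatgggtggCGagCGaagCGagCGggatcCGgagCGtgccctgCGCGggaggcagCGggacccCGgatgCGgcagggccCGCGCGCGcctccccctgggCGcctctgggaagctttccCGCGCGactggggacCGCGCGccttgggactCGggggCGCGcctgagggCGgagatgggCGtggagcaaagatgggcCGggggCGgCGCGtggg
The Cdkn2a sequence held 40 CG dinucleotides and was 78.4% G or C, and that of Klhl1 held 4 and was 50.8% G or C. Mtap and Serpinh1 each held 11. Igf2bp1, which had the largest increase of all, had no entry.

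Epithelial markers were present in part. Of 10 epithelial and lung markers, 6 had a peak within 1 kb of the gene in all 6 libraries (Cdh1, Krt8, Krt18, Krt19, Krt7 and Sftpc, the last at a region shared with Bmp1). Epcam, an epithelial marker, had a peak in 1 of the 6, Res_shFabp7 replicate 2, with 86 tags. Nkx2-1, Sftpb and Napsa, which mark alveolar lineage, had none in any library. The summed tags of these markers came to 805 to 1031 CPM of all tags in a library's peaks in Res_shFabp7 libraries, against 1131 to 1210 in Sen libraries. Of the keratins, 3 lie on chromosome 15, whose shift is given further on. All 9 immune markers were without a peak in all 6 libraries, as were 4 of 5 fibroblast, 3 of 5 endothelial and 5 of 6 neural markers. Cdh5, an endothelial cadherin on chromosome 8, whose shift is also given further on, had peaks in 3 of 3 Res_shFabp7 and 0 of 3 Sen libraries. The endothelial marker Vwf went the other way, with 76, 131 and 0 tags in Res_shFabp7, against 81, 191 and 204 tags in Sen. The summed endothelial markers were 36.2 to 57.9 CPM of tags in peaks in Res_shFabp7, against 17.7 to 19.3 in Sen. Pecam1, Kdr and Tek were at 0, so the higher sum in Res_shFabp7 rests on Cdh5. The part of the endothelial markers in the results was not tested.

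Fabp7 (chromosome 10, 57784923 to 57788450) had 0 H3K9ac peaks within 25 kb in each of the 6 libraries, so these lists give no value at the targeted gene and do not check the knockdown. H3K27ac had a peak within 25 kb of it in 2 of 3 Res_shFabp7 libraries, with 74 and 61 tags, and in 0 of 3 Sen libraries. Of the 9 Fabp genes, Fabp5 alone had an H3K9ac peak within 1 kb. Fabp5, the epidermal fatty acid binding protein, had 22.6, 21.8 and 16.7 CPM (here and below, tag counts scaled by TMM to the tags in tested regions) in Res_shFabp7, against 33.5, 42.6 and 42.1 CPM in Sen (chromosome 3, 10011693 to 10014321). The groups did not overlap. Its log2 change, here and below Res_shFabp7 over Sen, was -0.97 ± 0.14 (standard error of the fit, n = 3 against 3, edgeR adjusted p = 0.00012).

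Merging the 6 lists gave 19741 regions, of which 13732 had a peak in all 6 libraries and could be tested. At an adjusted p under 0.05, 2196 regions (16.0%) were higher and 2047 (14.9%) lower in Res_shFabp7 than in Sen. Most of these differences were small. The median absolute log2 change over all tested regions was 0.14, 89.1% of regions moved by less than 0.5 on the log2 scale, and 261 regions moved by more than 1. A further 828 regions (4.19%) had a peak in 3 of 3 Res_shFabp7 and 0 of 3 Sen libraries and are called gained, and 277 (1.40%) showed the reverse and are called lost. Outside these classes, 4904 regions had a peak in 1 to 5 of the libraries in other combinations. For 43.7% of tested regions the 3 values of one group lay wholly above those of the other.

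The libraries differed in depth more within Sen than between the groups. Res_shFabp7 lists held 16529, 18317 and 17610 peaks with 4.84, 7.19 and 5.86 M tags, against 15615, 16457 and 16229 peaks with 4.20, 10.2 and 11.5 M tags in Sen. The first Sen library was the shallow one, with a median deposited fold enrichment of 10.7 against 19.7 and 23.4 in the other Sen libraries. Peaks per list averaged 17485 ± 900 in Res_shFabp7 and 16100 ± 435 in Sen (SD, n = 3 each), with two-sided exact permutation p = 0.1, the smallest this design allows. Tags in peaks averaged 5.96 ± 1.18 M in Res_shFabp7 and 8.65 ± 3.91 M in Sen (exact permutation p = 0.4). With equal numbers of peaks kept per list, 516 regions were gained and 515 lost, so the surplus of gained over lost regions depends on list length. The gained count was 1306 without Res_shFabp7 replicate 1, and the lost count was 425 without Res_shFabp7 replicate 2 and 462 without Sen replicate 1.

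Whole chromosomes carried a large share of the called regions. On chromosome 8, 644 of 783 tested regions were higher in Res_shFabp7 (median log2 change 0.39), which is 29.3% of all higher regions. On chromosome 15, 477 of 621 were lower (median -0.36), which is 23.3% of all lower regions. Chromosomes 6 and 1 were lower by smaller amounts, with medians of -0.17 and -0.15, and the medians of the other 16 chromosomes lay between -0.03 and 0.06. Chromosomes 15, 6 and 1 together held 1013 of the 2047 lower regions (49.5%). On chromosome 8, 93.6% of regions lay above 0, and the quartiles of the changes ran between 0.29 and 0.50. On chromosome 15 just 3.86% lay above 0.

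**Figure D1:**
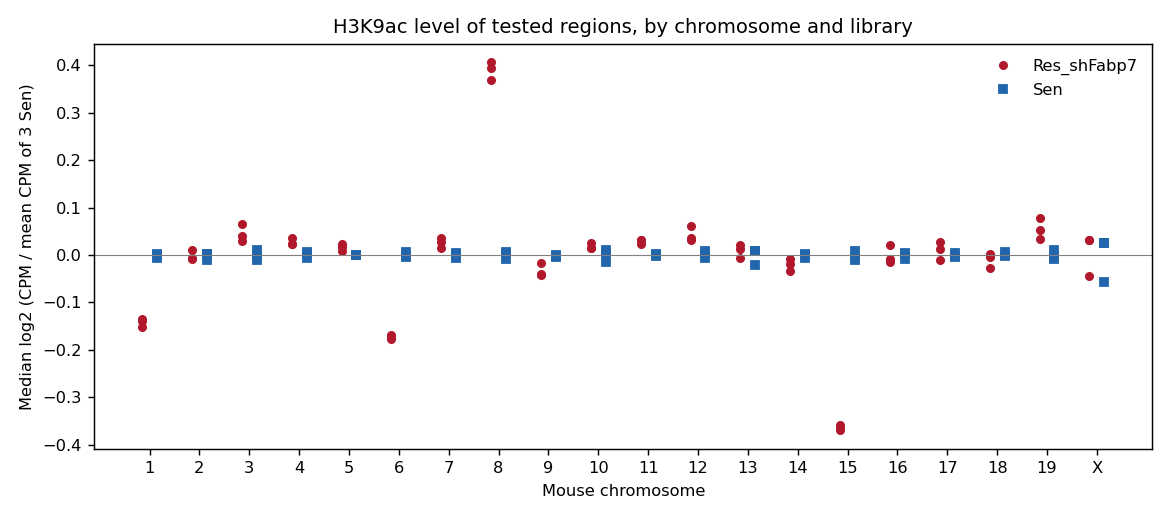
Median log2 ratio of H3K9ac CPM to the mean of the 3 Sen libraries, over the tested regions of each mouse chromosome (x axis), with 1 point per library. The 3 Res_shFabp7 libraries (circles) lay at 0.41, 0.37 and 0.39 on chromosome 8 and at -0.36, -0.37 and -0.36 on chromosome 15, and the Sen libraries (squares) lay near 0 throughout.

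The 3 Res_shFabp7 libraries lay close together on both chromosomes and the 3 Sen libraries lay within 0.02 of 0, except on chromosomes 13 and X. The shift was seen in H3K27ac too, measured in separate libraries: its median log2 change was 0.44 on chromosome 8 and -0.47 on chromosome 15. The other resistant groups moved the same way against Sen in a fit over all 12 H3K9ac libraries. There, chromosome 8 had medians of 0.38 in Res_shFabp7, 0.53 in Res_Ctrl and 0.31 in Res, and chromosome 15 had -0.33, -0.35 and -0.14 in that order, all against the same Sen libraries. What sets these chromosome medians was not tested. With each chromosome's median removed, 1550 regions were higher and 1342 lower. Of the 33 called members of the gene lists below that lie on chromosomes 8 or 15, 3 were then still called in the same direction, Maf, Fzd6 and Krt18. Outside these 2 chromosomes, 12.5% of 12328 regions were higher and 12.6% lower.

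Smaller stretches shifted as a block as well, among them one on chromosome 4 near the tumour suppressor genes Cdkn2a and Cdkn2b. Cdkn2a encodes the cell cycle inhibitor p16INK4a and the p53 activator ARF, Cdkn2b encodes a second inhibitor of the same kinases, and Mtap, next to them, encodes an enzyme of methionine salvage. The Cdkn2a region (89291702 to 89296795) had 0 peaks in Res_shFabp7, against 310, 958 and 1126 tags in the Sen libraries. The Cdkn2b region (89308352 to 89311427) had 0 peaks in Res_shFabp7, against 121, 363 and 461 tags in Sen. Both were without a peak in all Res_Ctrl and Res libraries too. Mtap, less than 1 Mb away (89136433 to 89142474), went the other way. It had 138, 132 and 135 CPM in Res_shFabp7, against 28.1, 38.3 and 36.3 CPM in Sen, a log2 change of 1.93 ± 0.08 (adjusted p = 8.0e-10).

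Around this pair the direction changed along the chromosome. All 4 tested regions from Rps6, a ribosomal protein gene, to Klhl9 (86855147 to 88723378) were lower, by 0.65 to 1.08 on the log2 scale. Among them are Mllt3, a reader of acylated histones in the super elongation complex (log2 change -0.92), and Focad, the gene of focadhesin (log2 change -0.79). Then 3 tested regions had changes between -0.25 and 0.09. All 6 tested regions between 89047935 and 89516711 were higher (median 1.1), 4 regions there were gained and 2 were lost. The 3 Res libraries had no peak at Mllt3, Focad, Klhl9 or any of these 6 regions, whereas Res_Ctrl had peaks at all of them in 2 or 3 of 3 libraries. These stretches were chosen after their values were seen, and their values are a description with no test of the stretch.

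Farther along, regions from Tusc1 to sites inside Nfia, a transcription factor gene, ending at 97781423, were higher in 7 of 7 tested cases, with a median log2 change of 1.45, and 8 more gained. Jun, a subunit of the AP-1 transcription factor, lies here. It had 149, 142 and 140 CPM in Res_shFabp7, against 49.6, 53.5 and 45.7 CPM in Sen (95049067 to 95054239, log2 change 1.53 ± 0.07, adjusted p = 1.1e-09). Then 9 tested regions between 98002936 and 99716835, at Tm2d1, Patj, Usp1 and Alg6 among others, had changes between -0.06 and 0.41, and 3 of them were called. From Efcab7 to Leprot (99827814 to 101649240) again 6 of 6 were higher, with changes between 1.34 and 1.86. These 6 included Pgm1, a phosphoglucomutase, Ror1, a Wnt-binding receptor, and Jak1, the kinase of interferon and cytokine receptors. Jak1 had 50.7, 49.0 and 50.5 CPM in Res_shFabp7, against 20.5, 20.6 and 18.4 CPM in Sen (log2 change 1.34 ± 0.11, adjusted p = 5.0e-07). In Sen, 5 of these 6 regions were without an H3K27ac peak in all 3 libraries, and in Res_shFabp7 all 6 had one in all 3. Past them, 6 regions from 103112534 on were between -0.15 and 0.24.

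**Figure D2:**
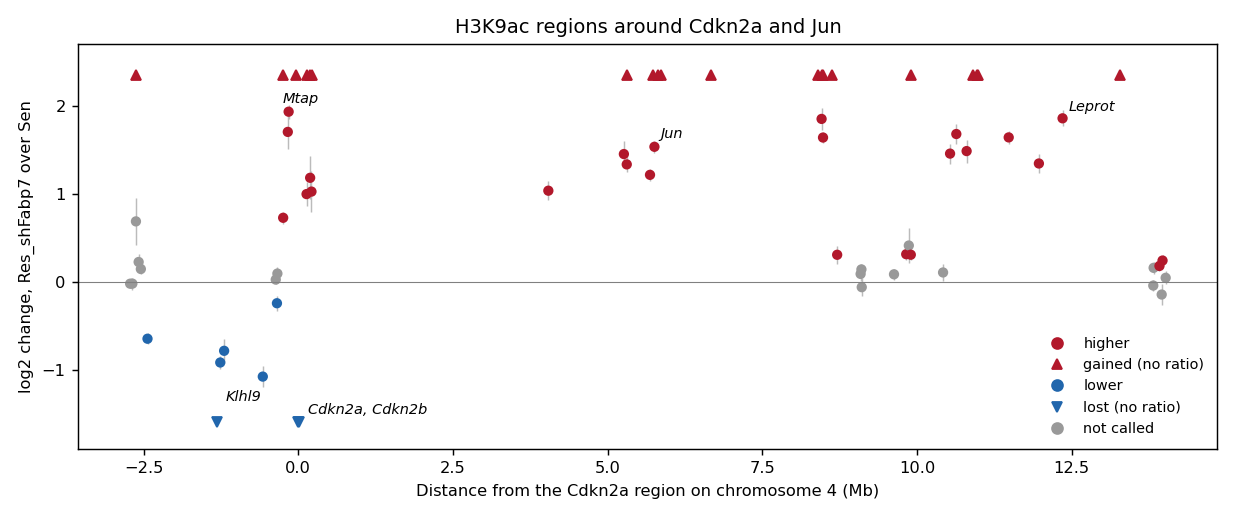
H3K9ac log2 change of Res_shFabp7 over Sen (y axis, bars are the standard error of the fit) for each tested region, by its distance in Mb from the Cdkn2a region on chromosome 4. Triangles mark gained and lost regions, which have no ratio and are set at a fixed height; red regions were higher or gained in Res_shFabp7 and blue ones lower or lost.

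Igf2bp1 led the increases. Igf2bp1, an oncofetal RNA-binding protein, had 216, 213 and 221 CPM in Res_shFabp7, against 37.6, 40.8 and 39.0 CPM in Sen (chromosome 11, 96000346 to 96007042). That is 5.51-fold (log2 change 2.46 ± 0.06, adjusted p = 2.1e-12), and H3K27ac had a peak there in 3 of 3 Res_shFabp7 libraries, against 1 of 3 Sen libraries. Zfhx4, a zinc finger homeobox factor, had 220, 219 and 210 CPM in Res_shFabp7, against 67.5, 56.4 and 58.1 CPM in Sen (log2 change 1.86 ± 0.06, adjusted p = 1.7e-10). Socs2, an inhibitor of cytokine receptor signalling, had 198, 192 and 195 CPM in Res_shFabp7, against 57.0, 61.2 and 56.4 CPM in Sen (log2 change 1.74 ± 0.06, adjusted p = 9.7e-11). For both, H3K27ac rose as well, with log2 changes of 1.95 at Zfhx4 and 1.92 at Socs2. Values that did not overlap between the groups were a condition for choosing these genes.

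Mbnl3, a splicing regulator on chromosome X, was next, at 47.2, 46.9 and 48.4 CPM in Res_shFabp7, against 11.7, 12.9 and 18.0 CPM in Sen. Zfp882, a zinc finger gene on chromosome 8, rose by 1.47 ± 0.13, well past that chromosome's median. The other genes among the 12 largest increases were Mtap, Jun and the chromosome 4 genes Leprot, Pgm1, Cachd1, Ror1 and Efcab7, the last of which shares its region with Itgb3bp.

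Among the 12 largest decreases, Serpinh1 came first. Serpinh1, the collagen chaperone HSP47, had 12, 23.2 and 12.5 CPM in Res_shFabp7, against 99.5, 98.8 and 89.5 CPM in Sen (chromosome 7, 99350530 to 99353914). It was 5.79-fold lower (log2 change -2.53 ± 0.19, adjusted p = 5.6e-05). Gpc6, a glypican of the cell surface, had 31.1, 38.9 and 34.7 CPM in Res_shFabp7, against 170, 153 and 157 CPM in Sen (log2 change -2.17 ± 0.08, adjusted p = 1.7e-10). Separate groups were a condition of this choice too. Slc16a3, the lactate exporter MCT4, had 37.2, 35.2 and 37.8 CPM in Res_shFabp7, against 117, 114 and 123 CPM in Sen (log2 change -1.69 ± 0.06, adjusted p = 3.7e-10). Its H3K27ac fell by 1.79 on the log2 scale.

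Bicc1, an RNA-binding protein, and Apob, the apolipoprotein of secreted lipoproteins, were 3.99-fold and about 4-fold lower. Bicc1 had 42.0, 37.4 and 45.8 CPM in Res_shFabp7, against 150, 164 and 178 CPM in Sen, and Apob had 10.4, 15 and 12.7 CPM in Res_shFabp7, against 53.0, 50.9 and 51.3 CPM in Sen. Zfp532, a zinc finger gene, fell by 2.01 on the log2 scale and Hmgcll1, which resembles HMG-CoA lyase, by 1.97. The remaining decreases among the 12 largest ran between -1.45 and -1.69 and were at Htr1b, a serotonin receptor, Rdh16f2, of the retinol dehydrogenase family, Pdgfb, a growth factor for mesenchymal cells, Prickle1, of planar cell polarity, and Tbkbp1, which binds the kinase TBK1. Of the 12, Pdgfb and Prickle1 lie on chromosome 15 and fell well past its median.

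**Figure D3:**
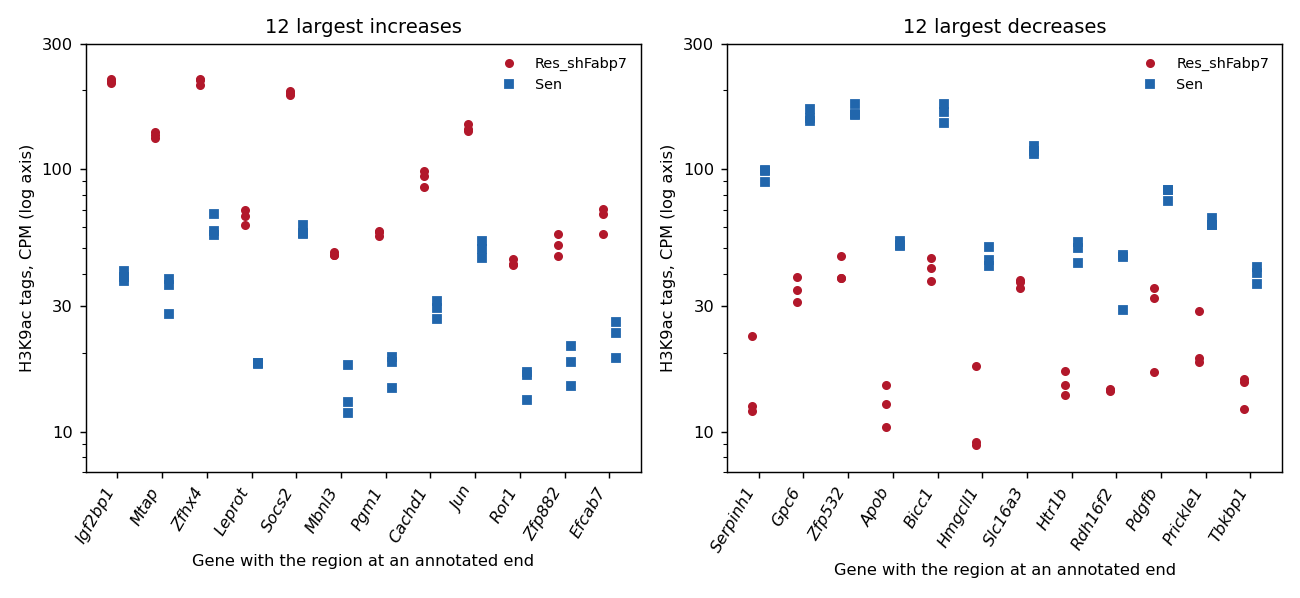
H3K9ac CPM (log axis) in each library at the 12 genes with the largest increases and the 12 with the largest decreases among called genes with separate groups. Circles are the 3 Res_shFabp7 libraries and squares the 3 Sen libraries; Igf2bp1 had 213 to 221 CPM in Res_shFabp7 and 37.6 to 40.8 CPM in Sen, and Serpinh1 12 to 23.2 CPM in Res_shFabp7 and 89.5 to 99.5 CPM in Sen.

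Gained and lost regions cannot be given a ratio, since a site with no peak has no deposited count. Of 828 gained regions, 17.6% lay within 1 kb of a RefSeq start, as did 22.7% of 277 lost regions and 64.5% of tested regions that were not called. The strongest gained region at a gene was at Klhl1, a kelch-like protein of neurons (chromosome 14, 96514961 to 96521150), with 601, 857 and 705 tags in Res_shFabp7 and no peak in Sen. H3K27ac was called there in 3 of 3 Res_shFabp7 and 0 of 3 Sen libraries. Cd53, a leukocyte tetraspanin, had 366, 570 and 404 tags in Res_shFabp7 and no H3K9ac peak in Sen. There H3K27ac was called in 3 of 3 libraries of both groups. Sox2, a stem cell and airway transcription factor, had 292, 409 and 325 tags in Res_shFabp7 and no peak in Sen. The Sox2 region was without a peak in all Res_Ctrl and Res libraries too, and H3K27ac was called there in 3 of 3 Res_shFabp7 and 0 of 3 Sen libraries. Between Cd53 and Sox2 in rank lay Anxa10, an annexin of gastric epithelium, and Acan, the cartilage proteoglycan aggrecan, with means of 376 and 348 tags in Res_shFabp7. Both had an H3K27ac peak in 3 of 3 Res_shFabp7 libraries. In Sen, Anxa10 had one in 2 of 3 libraries and Acan in 0 of 3. The other gained regions among the first 10 were at Pde3b, Rims2, Cacna2d1, Nptx1 and Slc35g2, with means between 209 and 251 tags.

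Besides Cdkn2a and Cdkn2b, the strongest lost regions were at a site shared by Khnyn and Sdr39u1, at Acer3, an alkaline ceramidase, at Pamr1, and at Trf, the gene of transferrin. Acer3 had no H3K9ac peak in Res_shFabp7, against 87, 406 and 507 tags in Sen, and Trf had no peak in Res_shFabp7, against 131, 393 and 446 tags in Sen. At Acer3 and Pamr1, H3K27ac was called in 3 of 3 libraries of both groups. Sox11, a neural and progenitor transcription factor, had no peak in Res_shFabp7, against 107, 364 and 370 tags in Sen. In each of these the first Sen library, the shallow one, had the fewest tags. Colca2, Rnf128 and Kcnk5 completed the first 10. Of 277 lost regions, 237 (85.6%) had no peak in any Res_Ctrl library and 228 (82.3%) none in any Res library. The same shares were 65.9% and 79.8% of the 4904 regions with peaks in other combinations, and 20.9% and 31.5% of all regions. Of 828 gained regions, 340 (41.1%) had no peak in any Res_Ctrl library and 90 had one in all 3. In H3K27ac, 283 gained regions (34.2%) had no peak in any Sen library and 146 (17.6%) had one in all 3. Those shares were 8.05% and 71.5% of all regions. Of lost regions, 60 (21.7%) had no H3K27ac peak in any Res_shFabp7 library and 147 (53.1%) had one in all 3, beside 2.34% and 92.6% of all regions.

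Over genes, 10332 had a tested region within 1 kb of an annotated end, of which 1393 (13.5%) were higher and 1356 (13.1%) lower, 26.6% in all, and the median log2 change was -0.00095. The 19 tested housekeeping genes, Actb, Gapdh and Polr2a among them, had 0 called, and lay between -0.18 and 0.22.

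Of 19 epithelial keratin and junction genes, 10 were higher and 3 lower (median log2 change 0.21). Itgb4, the hemidesmosome integrin, had 74.2, 78.8 and 79.3 CPM in Res_shFabp7, against 44.2, 49.1 and 47.4 CPM in Sen (log2 change 0.71 ± 0.07, adjusted p = 2.0e-06). Pkp3, a plakophilin of desmosomes, and Marveld2, a tight junction protein, each rose by 0.65, and Krt20 rose by 0.52. The 3 that fell, Krt18, Krt7 and Krt8, lie on chromosome 15, with changes of -0.58, -0.50 and -0.41 beside its median of -0.36. Cdh1, the gene of E-cadherin, and Esrp2, an epithelial splicing factor, lie on chromosome 8 and were higher by 0.27 and 0.32, less than its median of 0.39. With those medians removed Krt18 was at -0.23 (adjusted p = 0.024), Krt7 at -0.15 (adjusted p = 0.050) and Krt8 at -0.05 (adjusted p = 0.59), and Cdh1 and Esrp2 were at -0.12 and -0.07 and not called. With the medians of 5 Mb windows removed, Krt18 was at -0.19 (adjusted p = 0.057) and not called. With chromosome medians removed, 7 of the 19 were higher and 1 lower, and 15% of all genes were called.

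Mesenchymal and matrix genes went both ways, with 7 of 20 higher and 6 lower (median 0.04). Snai1, a repressor of E-cadherin, fell to 38.3, 41.2 and 36.7 CPM in Res_shFabp7, against 60.9, 59.9 and 60.5 CPM in Sen (log2 change -0.64 ± 0.07). The matrix protein gene Sparc fell by 0.42 and Ccn1, a target of YAP, by 0.34, while Col5a1, a fibrillar collagen, rose by 0.32. Vim, Zeb1 and Fn1, the usual markers of the mesenchymal state, had changes of 0.09, 0.08 and -0.21 and were not called.

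Of 12 oncofetal and growth regulator genes, 7 were higher and 2 lower, beside the loss of Cdkn2a and Cdkn2b. Besides Igf2bp1 and Mtap, Maf, a bZIP transcription factor, rose by 1.12 ± 0.13, and by 0.73 (adjusted p = 0.0028) with the median of chromosome 8 removed. Hmga2, a chromatin protein of embryonic cells, had a mean of 509.8 ± 5.4 CPM in Res_shFabp7 and 404.9 ± 13.0 CPM in Sen (log2 change 0.33). Mycn fell to 25.2, 28.3 and 20.7 CPM in Res_shFabp7, against 45.5, 53.3 and 48.8 CPM in Sen (log2 change -0.99 ± 0.11, adjusted p = 1.6e-05). Myc, on chromosome 15, fell by 0.31, close to that chromosome's median, and had 0.05 (adjusted p = 0.60) with it removed.

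Among Wnt, Notch, Hedgehog and BMP genes, 10 of 28 were higher and 3 lower (median 0.05). Bmp2, a secreted morphogen, had 67.6, 64.9 and 65.5 CPM in Res_shFabp7, against 23.2, 27.9 and 29.3 CPM in Sen (log2 change 1.27 ± 0.09, adjusted p = 1.3e-07). Fzd1, a Wnt receptor, fell by 0.64 ± 0.07. Fzd1 lies in the first 5 Mb of chromosome 5, where 16 of 18 tested regions were lower (median -0.52), as do Cyp51 and Cdk6 below. With the medians of 5 Mb windows removed, its change was -0.11 with an adjusted p of 0.27. Of 20 lung and gut lineage genes, 6 were lower and 2 higher. Scgb1a1, the secretoglobin of club cells, fell by 0.51 and Cdx2, an intestinal transcription factor, by 0.34, while Klf5, a factor of epithelial progenitors, rose by 0.34. As tags per called base Cdx2 had -0.02 (adjusted p = 0.88), and Klf5 was called lower, at -0.20 (adjusted p = 0.012). Foxa1 and Sftpc, which share regions with Ttc6 and Bmp1, had changes of 0.07 and -0.06 and were not called.

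In the fatty acid binding and uptake list, 3 of 12 were higher and 1, Fabp5, lower. The 3 were the acyl-CoA synthetases Acsl5, Acsl3 and Acsl1, with changes of 0.32, 0.26 and 0.23. Acsl3 shares its region with Utp14b and had -0.08 as tags per called base. Acsl1 had an adjusted p of 0.040, and of 0.11 to 0.14 without Res_shFabp7 replicate 1 or 3 or Sen replicate 2 or 3. It lies on chromosome 8, and with that chromosome's median removed its change was -0.16 with an adjusted p of 0.18. Of 16 fatty acid oxidation genes, 5 were higher and 1 lower. Decr1, a reductase for unsaturated fatty acids, led at 0.49 (adjusted p = 0.0091, and 0.067 without Res_shFabp7 replicate 2). Hadha and Hadhb, the subunits of the mitochondrial trifunctional protein, share a region, count as 2 of the 5 and rose by 0.27, with 0.11 (adjusted p = 0.18) as tags per called base. Acadl, an acyl-CoA dehydrogenase, fell by 0.31, with -0.17 (adjusted p = 0.12) once chromosome medians were removed. Cpt1a, the entry enzyme of this pathway, had a change of -0.07 and was not called. Of 16 genes of fatty acid synthesis, 2 were higher and 1 lower, and Fasn, which shares its region with Ccdc57, and Scd1 were not called, at -0.11 and -0.13. Of 13 lipid droplet and triglyceride genes, Bscl2, the seipin gene, at a region shared with Gng3, and Plin3, a droplet coat protein, were higher, by 0.37 and 0.24, and Plin3 had an adjusted p of 0.064 in the 12-library fit. Dgat1, a triglyceride synthase on chromosome 15, was lower by 0.40, with -0.04 (adjusted p = 0.72) once that chromosome's median was removed.

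Of 21 cholesterol genes, 5 were lower and 2 higher, and 4 of the 7 lie on chromosomes 8 or 15, where none kept its call with the chromosome median removed. Cyp51, a demethylase of the sterol pathway, had 77.4, 74.9 and 75.5 CPM in Res_shFabp7, against 124, 107 and 110 CPM in Sen (log2 change -0.56 ± 0.06). It lies in the shifted first 5 Mb of chromosome 5, and with window medians removed its change was -0.04 with an adjusted p of 0.73.

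Ferroptosis genes were called in both directions. Of 19 drivers, 4 were higher and 3 lower, and of 24 suppressors, 5 were higher and 3 lower. These are 36.8% and 33.3% of the lists, beside 26.6% of all genes. With chromosome medians removed, 2 drivers were higher and 2 lower, and 1 suppressor was higher and 3 lower. The shares were then 21.1% and 16.7%, beside 15% of all genes. Whether either list differs from all genes was not tested. Among drivers, Hmox1, the haem oxygenase on chromosome 8, rose by 0.75, with a change of 0.36 and an adjusted p of 0.12 once that chromosome's median was removed. Ptgs2, the cyclooxygenase used as a marker of ferroptosis, had 109, 119 and 119 CPM in Res_shFabp7, against 68.7, 75.6 and 76.7 CPM in Sen (log2 change 0.64 ± 0.06, adjusted p = 2.8e-06). Atf3, a stress-induced transcription factor, fell by 0.88 ± 0.14 as tags, with a change of -0.00074 as tags per called base, and Lpcat3, which loads polyunsaturated chains into phospholipids, by 0.54. Acsl4, which activates those chains, had a change of -0.05 and was not called. Among suppressors, Gpx4, the peroxidase that clears lipid hydroperoxides, had means of 144 ± 2.2 CPM in Res_shFabp7 and 161 ± 6.5 CPM in Sen (log2 change -0.15, adjusted p = 0.042), at a region it shares with Sbno2. Gsr and Dhodh were called higher but lie on chromosome 8, and with its median removed their changes were 0.03 and -0.09, with adjusted p of 0.76 and 0.28. Aifm2, the gene of FSP1, and Nfe2l2, the gene of NRF2, had changes of -0.14 and -0.07 and were not called.

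In the integrated stress and unfolded protein response list, 5 of 25 genes were higher and 2 lower. Xbp1 and Ern1, which encode a transcription factor and the sensor that splices it, each rose by 0.41. Slc7a5, an amino acid transporter, and Herpud1, of endoplasmic reticulum degradation, lie on chromosome 8 and rose by 0.49 and 0.40, with 0.10 (adjusted p = 0.58) and 0.0074 (adjusted p = 0.95) once its median was removed. Atf4, the central factor of the response, lies on chromosome 15, shares its region with Mief1 and fell by 0.29, with 0.07 (adjusted p = 0.58) in that setting. Of 22 hypoxia and glycolysis genes, Slc16a3 fell and Bnip3 and Ankrd37 rose. Bnip3 rose by 0.35 and had an adjusted p of 0.093 in the 12-library fit, and Ankrd37, on chromosome 8, rose by 0.38, with -0.0092 (adjusted p = 0.94) once that chromosome's median was removed. Of 15 clock genes, Per2 fell by 0.60 ± 0.06 and Ciart by 0.26, and none rose. Ciart had -0.15 (adjusted p = 0.11) as tags per called base and an adjusted p of 0.12 in the 12-library fit.

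In the checkpoint ligand and cytokine list, 2 of 15 were higher and 3 lower. Cxcl5, a neutrophil chemokine, had 53.9, 55.9 and 45.8 CPM in Res_shFabp7, against 96.3, 112 and 109 CPM in Sen (log2 change -1.04 ± 0.08, adjusted p = 4.0e-07). Csf1, the macrophage growth factor, fell by 0.47 as tags, whereas its tags per called base gave 0.27 with an adjusted p of 0.50. Cd274, the gene of the PD-1 ligand PD-L1, had means of 27.8 ± 0.6 CPM in Res_shFabp7 and 28.8 ± 1.5 CPM in Sen and was not called. Of 18 NF-kB genes, 5 were higher and 1 lower, and Vcam1, an adhesion molecule, was the one that fell, to 43.3, 57.1 and 46.4 CPM in Res_shFabp7, against 120, 118 and 125 CPM in Sen. Isg15, a ubiquitin-like interferon product that shares its region with Agrn, fell by 0.65 ± 0.06, and of 16 interferon genes the other called ones were Jak1 and Irf2. Irf2 lies on chromosome 8 and rose by 0.40, with 0.01 (adjusted p = 0.91) once its median was removed. Of 12 class I antigen presentation genes, Calr and Psmb10, the second at a region shared with Lcat, were higher, both on chromosome 8, and with its median removed 0 of the 12 were called (0.01 at Calr, adjusted p = 0.90, and -0.10 at Psmb10, adjusted p = 0.34). B2m and H2-K1 had changes of -0.05 and 0.24 and were not called.

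Of 31 genes of enzymes and readers of histone acetylation, 5 were higher and 4 lower. Hdac1, a class I deacetylase that shares its region with Marcksl1, had 63.3, 71.1 and 67.5 CPM in Res_shFabp7, against 50.8, 50.1 and 49.6 CPM in Sen (log2 change 0.43 ± 0.07), and Sirt1, a deacetylase that uses NAD, rose by 0.39. Ep300, the acetyltransferase p300, lies on chromosome 15 and fell by 0.18, but had 0.18 (adjusted p = 0.046) with that chromosome's median removed. Of 31 cell cycle genes, 4 were higher and 3 lower. Cdk6, the target of the Cdkn2 inhibitors, fell by 0.53, and by 0.01 with an adjusted p of 0.98 once the median of its 5 Mb window was removed. Of 3 tested neural and glial genes Nes, an intermediate filament of progenitors, rose by 0.60 and Mbp, a myelin protein, fell by 0.21. The call at Mbp was lost without Res_shFabp7 replicate 1, 2 or 3 or Sen replicate 2 (adjusted p of 0.068, 0.062, 0.051 and 0.14), and 0 of 3 tested immune genes were called. The fibroblast and endothelial list had 0 tested genes.

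Nearness to Sen was read in a fit over the 10149 regions called in all 12 H3K9ac libraries, where 3 contrasts share the Sen libraries and only their own values are set side by side. Against Sen, 1472 regions (14.5%) were higher and 1170 (11.5%) lower in Res_shFabp7, 1930 (19.0%) and 1638 (16.1%) in Res_Ctrl, and 2937 (28.9%) and 2680 (26.4%) in Res. The median absolute log2 change from Sen was 0.11 in Res_shFabp7, 0.15 in Res_Ctrl and 0.24 in Res, and 83, 138 and 384 regions in that order moved by more than 1. With the chromosome medians removed, 1425, 1974 and 3687 regions were called in the same order, and the order held in all 11 settings that were run. None of these settings left out a Res_Ctrl or Res library. The root mean squared log2 distance of each library to the 3 Sen libraries was 0.30, 0.292 and 0.288 in Res_shFabp7, against 0.382, 0.376 and 0.339 in Res_Ctrl and 0.468, 0.453 and 0.460 in Res. No Res_shFabp7 library overlapped either group, and the exact permutation p was 0.1 for both, the smallest that 3 libraries against 3 allow.

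**Figure D4:**
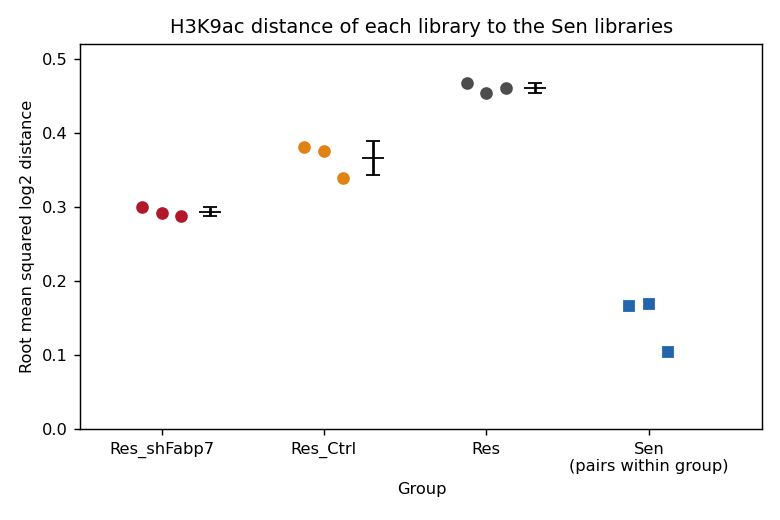
Root mean squared log2 distance (y axis, log2 CPM with 0.5 added) of each H3K9ac library to the 3 Sen libraries, by group, with the mean and SD of 3 libraries beside the points. Squares are the 3 pairs within Sen; Res_shFabp7 lay at 0.288 to 0.30, below Res_Ctrl at 0.339 to 0.382 and Res at 0.453 to 0.468.

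Spread within a group adds to such a distance and was larger in the groups with fewer tags (2.57 to 4.63 M per library in Res_Ctrl and 3.02 to 3.89 M in Res), at 0.139 within Res_shFabp7, 0.226 within Res_Ctrl, 0.222 within Res and 0.150 within Sen. Net of it the distance to Sen was 0.256 for Res_shFabp7, 0.312 for Res_Ctrl and 0.420 for Res. By the same measure Res_shFabp7 lay nearer to Res_Ctrl (0.155) than to Sen. Between Res_shFabp7 and Res_Ctrl, 260 regions (2.56%) were higher and 490 (4.83%) lower, 750 in all. That total was 424, 405 and 311 without Res_shFabp7 replicate 1, 2 and 3, and 414 with chromosome medians removed. Between Res_shFabp7 and Res, 2476 regions (24.4%) were higher and 2614 (25.8%) lower.

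The contrast of Res with Sen and that of Res_shFabp7 with Res_Ctrl have no library in common. Of 2937 regions higher in Res than in Sen, 238 (8.10%) were lower and 40 (1.36%) higher in Res_shFabp7 than in Res_Ctrl. Of 2680 regions lower in Res than in Sen, 123 (4.59%) were higher and 117 (4.37%) lower in Res_shFabp7 than in Res_Ctrl. Of 4532 regions not called between Res and Sen, 97 (2.14%) were higher and 135 (2.98%) lower. Chromosome medians were not removed for these counts. In the order of the contrasts, those medians were 0.31 and -0.16 on chromosome 8 and -0.27 and 0.23 on chromosome X. On chromosome 1 they had the same sign, at 0.17 and 0.05. The part of such medians in the counts was not tested. Igf2bp1 had 243 ± 2.4 CPM in Res_shFabp7, 242 ± 17.5 in Res_Ctrl and 328 ± 7.0 in Res, against 43.9 ± 2.2 CPM in Sen (SD, n = 3 each, scaled over the 12 libraries). Other leading genes differed in which resistant cells shared the change. Socs2 had 218 ± 3.3 CPM in Res_shFabp7, 212 ± 35.0 in Res_Ctrl and 83.0 ± 9.1 in Res, against 65.2 ± 3.3 in Sen. Gpc6 had 39.1 ± 4.6 CPM in Res_shFabp7, 55.3 ± 19.8 in Res_Ctrl and 209 ± 13.8 in Res, against 179 ± 8.1 in Sen.

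Some genes lay farther from Sen in Res_shFabp7 than in Res_Ctrl. Slc16a3 had 41.1 ± 1.2 CPM in Res_shFabp7, 74.0 ± 2.0 in Res_Ctrl and 111 ± 4.8 in Res, against 132 ± 5.3 in Sen, and Res_shFabp7 was lower than Res_Ctrl by 0.85 on the log2 scale (adjusted p = 1.3e-06). Fabp5 had 22.8 ± 3.7 CPM in Res_shFabp7, 33.2 ± 6.2 in Res_Ctrl and 52.9 ± 2.3 in Res, against 44.2 ± 6.2 in Sen. Its levels in Res_shFabp7 and Res_Ctrl differed by -0.53 ± 0.16 (adjusted p = 0.043). Ccn1 had 175 ± 3.1 CPM in Res_shFabp7, 270 ± 12.8 in Res_Ctrl and 325 ± 13.9 in Res, against 224 ± 4.0 in Sen. The Res_shFabp7 mean lay below that of Sen, and those of Res_Ctrl and Res above it.

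H3K27ac, which p300 and CBP place at active enhancers as well as promoters, moved with H3K9ac. In the H3K27ac lists of the same groups 989 of 13663 regions (7.24%) were higher and 1203 (8.80%) lower in Res_shFabp7 than in Sen. With the replicate number as a block, the counts were 1536 (11.2%) and 1677 (12.3%). Of the 1901 higher H3K9ac regions that overlapped a tested H3K27ac region, 722 were higher and 1 lower in H3K27ac, and 1006 and 2 with the block. Of 1927 lower ones, 743 were lower and 1 higher, and 1001 and 2 with the block. At 8146 regions not called in H3K9ac, 150 were higher and 78 lower, or 351 and 176 with the block. The marks come from separate libraries, and the median H3K27ac change was 0.39 at higher and -0.37 at lower H3K9ac regions. It was 0.02 at regions not called in H3K9ac. Chromosome medians were not removed for these values, and their part in the shared direction was not tested. Without the block, the numbers called in the same direction in both marks were 271 higher and 346 lower without Res_shFabp7 replicate 2, and 283 and 405 without replicate 3. They were 442 and 457 without Sen replicate 2, and 409 and 418 without Sen replicate 3.

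**Figure D5:**
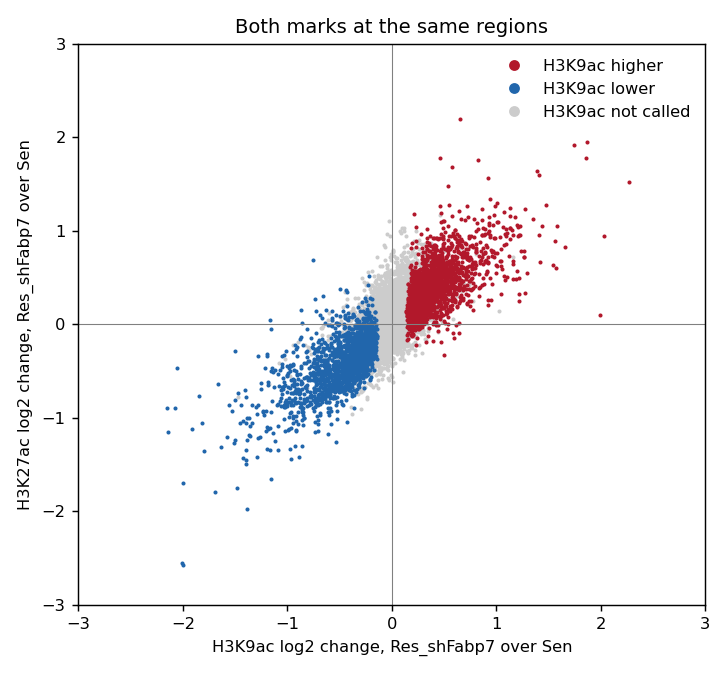
H3K9ac log2 change (x axis) against H3K27ac log2 change (y axis), both Res_shFabp7 over Sen, for each region tested in both marks, coloured by its H3K9ac call. Of 1901 higher H3K9ac regions, 96.7% had an H3K27ac change above 0, and of 1927 lower ones 95.3% had one below 0. Of 8146 regions not called in H3K9ac, 66.1% had changes of the same sign in both marks. Chromosome medians, some of which were shifted in both marks, were not removed for these shares.

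The called classes were also read against promoter sequence. In the 300 bases around annotated starts (250 before and 50 after), the median number of CG dinucleotides was 23 for 1248 starts inside higher regions, 22 for 1196 inside lower regions and 23 for 7497 inside tested regions that were not called. Starts inside gained and lost regions had a median of 16 each (110 and 46 starts), and 10727 starts outside every region had 4. The AP-1 motif TGANTCA, which reads the same on both strands, was in 10.0% of starts in gained regions (11 of 110), 4.89% of those in higher and 4.85% of those in lower regions. It was in 4.12% of starts in tested regions that were not called, 9.13% of those in other regions, 9.37% of those in no region and 6.99% of all 21262 starts. The E-box CACGTG, also its own reverse complement, was in 10.2% of starts in higher and 8.61% in lower regions, beside 11.1% in tested regions that were not called, 5.2% in no region and 7.84% of all starts. A motif match is a description of these letters and not of a bound factor.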

How the data were processed

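H3K9ac and H3K27ac ChIP-seq peak lists of 4 cell groups were used, with 3 libraries per group and mark, and the 4 inputs were left out. Reads were placed on mm10 with Bowtie 1.1.2 and peaks called with MACS 1.4.2, per the submitters' processing notes. For each peak the authors deposited the tag count, used here as counts, a score (a multiple of the negative log10 of the caller's p), which reached down to a p of 1e-05, and a fold enrichment (a ratio), used only to describe lists. How inputs and duplicate reads were handled is not given in the sources used here.

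H3K9ac peaks of the 6 Res_shFabp7 and Sen lists that shared at least 1 base were merged, and tags were summed per region. Regions called in all 6 lists were tested with edgeR 4.0.16 (quasi-likelihood F test, TMM scaling, Benjamini-Hochberg adjustment over all 13732 regions, threshold 0.05; R 4.3.3), without a replicate block. Sites with no peak carry no count, so elsewhere the presence of a peak alone was compared, and this choice favours sites marked in both groups. Peak extents were set separately in each list, which also sets the tags a region receives. CPM are scaled to the tags in tested regions. A gene took the region within 1 kb of either annotated end with the highest mean scaled tags, among 21883 protein-coding genes of RefSeq on GRCm38.p6; genes sharing a region are named together. A second fit took the 10149 regions called in all 12 H3K9ac lists.

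For H3K27ac, same-numbered libraries of the 2 groups deviated together (correlations of 0.434, 0.221 and 0.286). So did Res_shFabp7 replicate 2 with Sen replicate 3 (0.251) and Res_shFabp7 replicate 3 with Sen replicate 2 (0.265). These values set replicate 1 apart and do not pair replicates 2 and 3 by number. The fit with the block is given beside the one without. No batch or date is given in the labels used here. No pair of lists shared more than 0.0101% of exact intervals. On simulated counts for the 13732 regions, 52 of 67 changes of 0.5, 67 of 67 of 1 and 66 of 66 of 1.5 on the log2 scale were called. p-values measure the spread between libraries labelled biological replicates.

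Named genes are the 12 largest increases and decreases among called genes with separate groups, the 10 strongest gained and lost regions at genes, and list members called with the largest changes; some further list members, called or not, were named after their values were seen. A few list members are counted but not reported singly here. The members and the 25 gene lists (684 entries) were chosen with earlier results of these data known. Alternatives were DESeq2 1.42.0, its size factors in edgeR, a scaling that follows the mean tag count (limma 3.58.1), a mean of at least 200 tags, merging across gaps of 500 bases, a score of at least 100, equal list lengths, gene ends within 2.5 kb, tags per called base, chromosome and 5 Mb medians removed, a replicate block and all 12 libraries. Each Res_shFabp7 and Sen library was also left out in turn. Exact permutation tests used scipy 1.17.1, and figures matplotlib 3.10.9.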

Additional observations from a re-analysis of the deposited data

Results flagged for a closer look

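Of the 98 named genes, 13 differed between Res_shFabp7 and Res_Ctrl in the fit over 12 H3K9ac libraries, so that their distance from Sen was not the same in both (edgeR, test of the difference itself, n = 3 against 3). Genes without a region called in all 12 lists could not be counted. Of all 10149 regions of that fit, 260 (2.56%) were higher and 490 (4.83%) lower in Res_shFabp7 than in Res_Ctrl. The named genes were chosen largely for their changes between Res_shFabp7 and Sen, and whether they differ from all regions was not tested. The log2 difference of Res_shFabp7 over Res_Ctrl was -0.85 at Slc16a3, -0.69 at Snai1, -0.65 at Cxcl5, -0.62 at Ccn1, -0.59 at Nes, -0.53 at Fabp5 and -0.51 at Csf1. It was -0.41 at Pgm1, -0.41 at Acsl1, -0.39 at Jak1, -0.28 at Jun, -0.26 at Cachd1 and 0.25 at Zfhx4. Adjusted p ran between 6.7e-07 at Ccn1 and 0.043 at Fabp5 and Zfhx4. At Slc16a3, Cxcl5 and Fabp5 both groups were lower than Sen and Res_shFabp7 was the farther one. At Snai1 and Csf1 the change against Sen was -0.64 and -0.47 in Res_shFabp7, and 0.05 and 0.04 in Res_Ctrl. Pgm1, Cachd1, Jun and Jak1 lie on chromosome 4, where the median difference between Res_shFabp7 and Res_Ctrl was -0.13, and Acsl1 lies on chromosome 8, where it was -0.16; the part of these medians in the genes' values was not tested. Groups of 3 libraries were too small to look for single outlying libraries.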

How the results depend on the processing

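With chromosome medians removed, 1550 regions were higher and 1342 lower, and 807 and 739 genes. In that setting 1425 regions were called between Res_shFabp7 and Sen, 1974 between Res_Ctrl and Sen, 3687 between Res and Sen and 414 between Res_shFabp7 and Res_Ctrl. With 5 Mb window medians removed, 1526 regions were higher and 1317 lower, and 823 and 735 genes. In the 12-library fit 1472 were higher and 1170 lower, over fewer regions. With equal list lengths 516 were gained and 515 lost. Leaving out each library in turn gave 1679 to 2365 higher and 1651 to 2252 lower regions, 1101 to 1584 higher and 1085 to 1406 lower genes, 876 to 1306 gained and 288 to 462 lost regions. The difference in peaks ranged between 969 and 1863, and that in tags between -4.91 and -1.23 M. In the 12-library fit just Res_shFabp7 and Sen libraries were left out in turn, and no Res_Ctrl or Res library. Called regions there ranged over 2088 to 2362 (Res_shFabp7 and Sen), 2981 to 3450 (Res_Ctrl and Sen), 4860 to 5525 (Res and Sen) and 311 to 736 (Res_shFabp7 and Res_Ctrl). For H3K27ac they were 341 to 1364 higher and 592 to 1830 lower (1830 without Sen replicate 1), with 271 to 927 higher and 346 to 1002 lower in both marks. The H3K27ac replicate block gave 1536 higher and 1677 lower regions, and 1006 and 1001 in both marks. The H3K9ac numbers did not pair the libraries (correlations of 0.0559, 0.171 and -0.0994); with that replicate block 2224 regions were higher and 2101 lower, and 1384 and 1365 genes, with 2634, 3544, 5606 and 696 regions in the order of the 4 contrasts above. Among 98 named genes, 48 kept direction and call in every setting run; of 1624 values, 126 lost the call and 17 turned sign. With chromosome medians removed these were Ankrd37 (-0.0092), Mvd (-0.018), Dhodh (-0.091), Psmb10 (-0.10) and Acsl1 (-0.16). With window medians removed they were Gsr (-0.00099), Mcm5 (-0.028), Calr (-0.023), Dhodh (-0.11), Psmb10 (-0.12), Acsl1 (-0.11) and Sqle (0.077). As tags per called base they were Klf5 (-0.20), Acsl3 (-0.080), Csf1 (0.27) and Sox9 (0.064), and in the 12-library fit Tnfaip2 (-0.70). In these settings Klf5 and Tnfaip2 were called in the other direction (adjusted p = 0.012 and 0.0011). At Tnfaip2 the region of the main fit had a peak in 0 Res libraries, so its 12-library value comes from a region drawn otherwise. The cause of the other sign changes was not tested. Depth limits small changes: the first Sen library and all Res_Ctrl and Res libraries held fewer tags than the other Sen libraries.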
